A study of Mus musculus with 6 samples.

Results

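Histone genes were examined in brain tissue of wild-type mice, from which RNA had been extracted either with TRIzol or with the AllPrep kit. The members were all genes of the count table whose symbol begins as mouse histone symbols do (H1f, H2a, H2b, H3c, H3f, H4c, H4f or the older Hist names), with 1 row per Ensembl ID. This gave 62 of 22584 genes. By symbol, 47 were placed among the replication-dependent genes, 8 among the replication-independent variants, and 7 in a rest class of germline genes, the locus H3f4 and a pseudogene. The control group held 3 libraries from TRIzol, a phenol and guanidine reagent, and the other group held 3 libraries from AllPrep, a column kit that yields DNA, RNA and protein from 1 lysate. All animals carried the wild-type genotype, and the labels give no strain, age or sex. The labels do not say whether each library was made from its own animal; the p-values therefore rest on library-to-library spread, and that spread could be purely technical.

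Histones package DNA into nucleosomes: H2A, H2B, H3 and H4 form the core, and H1 binds the linker DNA. Replication-dependent histone genes lie in clusters and are transcribed mostly in S phase, when new DNA needs new nucleosomes. Their mRNA usually carries no poly(A) tail and ends just after a short stem-loop, which is bound by the protein Slbp. Replication-independent variants, such as H3.3 and H2A.Z, are made through the whole cell cycle and in cells that no longer divide, from ordinary polyadenylated mRNA. Some clustered genes can also yield longer, polyadenylated mRNA in differentiated cells. Most neurons of the mature brain no longer divide.

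The stem-loop is what sets the ends of the mRNA classes apart, so the letters found in the annotated transcripts of 9 members are shown. They come from the GENCODE vM21 transcripts, 5′ to 3′, with the stem-loop match in capitals and up to 5 flanking bases in lower case. H2bc27, H1f2 and H4c14 are well-counted or tested members, H4c11, H2bc3, H2ac20, H4c17 and H2ac11 are hardly counted ones, and H2ax is a variant known to make mRNA of both kinds.
H2bc27: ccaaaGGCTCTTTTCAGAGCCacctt
H1f2: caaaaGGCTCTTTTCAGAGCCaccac
H4c14: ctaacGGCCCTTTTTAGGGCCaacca
H4c11: ctaaaGGTCCTTTTCAGGACCaccac
H2bc3: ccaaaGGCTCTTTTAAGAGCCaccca
H2ac20: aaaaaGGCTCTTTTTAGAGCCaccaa
H4c17: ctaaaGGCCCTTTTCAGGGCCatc
H2ac11: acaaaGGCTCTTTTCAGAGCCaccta
H2ax: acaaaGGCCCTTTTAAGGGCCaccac
The search asked for GG, 2 free bases, CTTT, 2 free bases, AG, 2 free bases and CC in direct succession, on the transcribed strand of every annotated transcript of a gene. A match was found in 33 of 47 replication-dependent genes, in 1 of 8 replication-independent genes (H2ax) and in 0 of 7 others. Among the other genes of the table with an annotated transcript, 120 of 22159 (0.542%) held a match. The letters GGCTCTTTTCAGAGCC were shared by 20 of the 33 genes, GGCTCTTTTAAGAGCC by 5 and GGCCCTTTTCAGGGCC by 4. A match describes the letters and does not show that a loop forms or is used. A missing match does not show that a gene lacks a stem-loop, since an annotated transcript may stop before it.

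Total counts ran from 36395330 to 50937858 per library. Levels are given as CPM, the counts of a gene per 1000000 counts of its library. Summed CPM of the marker lists were high for brain cells, with 5612 to 7266 CPM for 5 neuronal genes and 2266 to 5094 CPM for 3 oligodendrocyte genes. The 4 neutrophil genes, the only list near 0, had 0.0444 to 0.136 CPM. Choroid plexus genes differed most between the methods: 5 genes summed to 17.4 to 25.3 CPM in TRIzol and 606 to 1218 CPM in AllPrep. Oligodendrocyte sums were lower in every AllPrep library than in any TRIzol library, and astrocyte (615 to 830 against 847 to 949 CPM) and microglial sums (153 to 156 against 173 to 178 CPM) were higher, on CPM and on TMM-scaled CPM. Of the 5 neuronal genes Rbfox3 and Gad1 had positive log2 fold changes (0.12 and 0.17) and Snap25 a negative one (-0.39), and on TMM-scaled CPM the neuronal sums overlapped. The 5 genes of neural progenitors and neuroblasts summed to 54.7 to 69.5 CPM in TRIzol and 69.5 to 85.1 CPM in AllPrep. In bulk tissue, fewer cells of a type and less RNA per cell cannot be told apart. Choroid plexus, oligodendrocyte, astrocyte and microglial sums differed together with the method. An effect of the method on histone genes therefore cannot be told apart from one of tissue content.

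No tested histone gene was called between the methods. Of the 62 members, 23 had enough counts to be tested (14 replication-dependent, 8 replication-independent, and H3f4), and 0 of them changed at an adjusted p below 0.05 in edgeR's quasi-likelihood test, against 3.80% of 16325 genes tested (2.52% higher and 1.28% lower in AllPrep). A count of 0 in 23 genes is near that background. The number at an adjusted p below 0.05 was also 0 with DESeq2 and with limma-trend. At an unadjusted p below 0.05 it was 0 in these fits, but 2 without TRIzol replicate 1. It was 1 with library size alone and 1 with length and GC trends removed. Without TRIzol replicate 2, TRIzol replicate 3 or AllPrep replicate 3 it was also 1. No share over all genes is at hand for that cut. The smallest adjusted p of a member was 0.20, for H2ac6. The replication-independent genes had a median log2 fold change of -0.12 (AllPrep relative to TRIzol) and the tested replication-dependent genes one of 0.13, where all genes tested had -0.01. In simulated data the test recovered 26.8% of 1.5-fold and 61.2% of 2-fold changes. A p above the threshold does not show equal levels, so the 95% interval of each difference is given for the genes that matter.

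The replication-independent class was summed over its 8 genes in each library. The sums were 521, 468 and 483 CPM in TRIzol replicates 1, 2 and 3, and 446, 444 and 424 CPM in AllPrep replicates 1, 2 and 3. Every AllPrep library thus lay below every TRIzol library, by a small margin between 446 and 468 CPM. On TMM-scaled CPM the margin was smaller, between 454 and 460 CPM. The mean was 491 ± 27.5 CPM (SD, n = 3) in TRIzol and 438 ± 11.99 CPM (SD, n = 3) in AllPrep, a log2 ratio of -0.16. Within this class 7 of 8 genes had a negative log2 fold change, compared with 51.5% of all genes tested. The class median was -0.07 without TRIzol replicate 1, in which the sum was highest. With length and GC trends removed it was -0.06, beside a median of -0.05 over all genes in that fit. Oligodendrocyte marker sums were lower in the same 3 AllPrep libraries, and choroid plexus sums higher; their part in this difference was not tested.

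The replication-dependent class was summed in the same way over its 47 genes. The sums were 72.0, 77.4 and 68.7 CPM in TRIzol replicates 1, 2 and 3, and 72.1, 76.1 and 69.6 CPM in AllPrep replicates 1, 2 and 3. The libraries of both methods interleaved, with means of 72.7 ± 4.39 CPM and 72.6 ± 3.29 CPM (SD, n = 3 each). Counts of replication-independent genes exceeded those of replication-dependent genes in each library, by a ratio of 7.24, 6.04 and 7.02 in TRIzol and of 6.19, 5.83 and 6.10 in AllPrep. These ratios overlapped between the methods. They are ratios of counts, not of mRNA: 23 of the 47 replication-dependent genes, but 1 of the 8 others, share over 20% of their 150-base windows with other genes, and the handling of reads that fit several genes is unknown, as is the recovery of mRNA without a poly(A) tail.

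**Figure D1:**
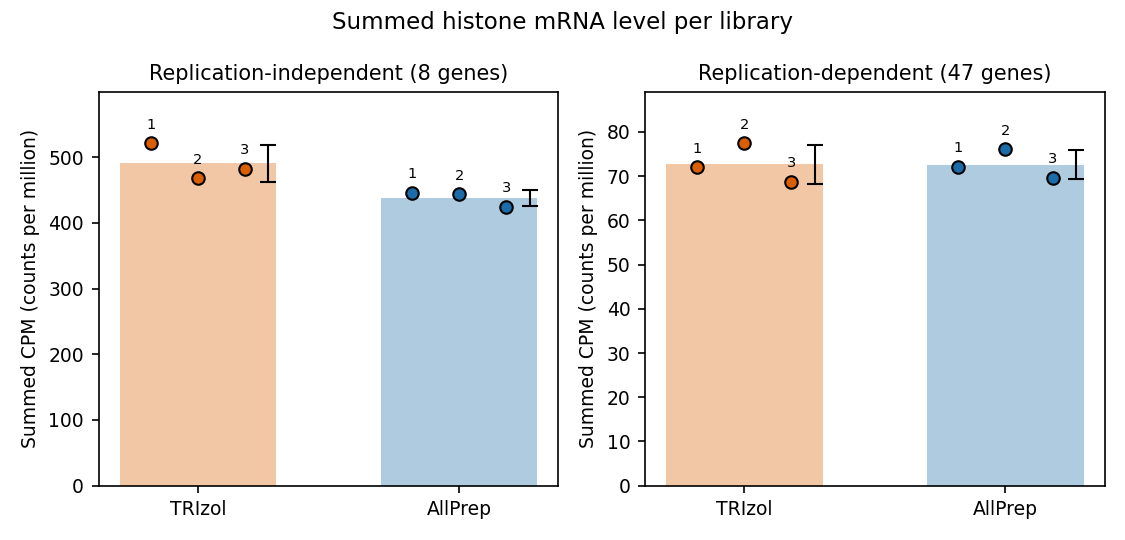
Summed CPM of the 8 replication-independent genes (left) and the 47 replication-dependent genes (right), with 1 numbered point per library, bars for the mean and error bars for the SD of 3 libraries. On the left every AllPrep point (424 to 446 CPM) lies below every TRIzol point (468 to 521 CPM), and on the right the points interleave between 68.7 and 77.4 CPM.

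Histone H3.3 is the replacement form of H3, deposited outside S phase, and H3f3a and H3f3b encode the same protein. H3f3b (ENSMUSG00000016559) had 190, 179 and 174 CPM in TRIzol replicates 1 to 3 and 165, 162 and 159 CPM in AllPrep replicates 1 to 3. All AllPrep libraries were lower, yet the difference did not pass (log2 fold change -0.12 with an SE of 0.07 and an adjusted p of 0.29 from edgeR). Its 95% interval from limma-trend ran from -0.28 to 0.03, so a fall below 0.825 times the TRIzol level lies outside it. H3f3a (ENSMUSG00000060743) had 115, 79.9 and 97.8 CPM in TRIzol and 84.5, 85.2 and 78.5 CPM in AllPrep. TRIzol replicate 1 was the highest and the groups overlapped (log2 fold change -0.21, adjusted p = 0.36); without that library the value was -0.06, and without TRIzol replicate 2 it was -0.34 (adjusted p = 0.12). The level per kb of the longest annotated transcript was 31.8 CPM for H3f3a and 68.2 CPM for H3f3b over the 6 libraries. The ratio of H3f3a to H3f3b per kb was 0.538, 0.396 and 0.497 in TRIzol and 0.454, 0.466 and 0.437 in AllPrep, so the AllPrep values lay inside the TRIzol range. Summed, the H3.3 genes had 305, 258 and 272 CPM in TRIzol and 249, 247 and 238 CPM in AllPrep, with no overlap. On TMM-scaled CPM the gap was only that between 253.0 in AllPrep and 254.1 in TRIzol. For H3f3a 4.4% of the 150-base windows of its longest transcript also occur in transcripts of other genes, among them annotated H3f3a copies, and for H3f3b 0.1%.

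H2A.Z is an H2A variant found at promoters, and its genes H2az1 and H2az2 encode nearly identical proteins. H2az1 (ENSMUSG00000037894) had 60.7, 59.1 and 56.0 CPM in TRIzol and 50.3, 58.3 and 49.6 CPM in AllPrep. AllPrep replicate 2 reached into the TRIzol range, and the difference did not pass (log2 fold change -0.12, SE 0.09, adjusted p = 0.44). Without AllPrep replicate 2 the value was -0.20, with an adjusted p of 0.26. H2az2 (ENSMUSG00000041126) had 25.1, 25.8 and 22.3 CPM in TRIzol and 25.2, 22.98 and 22.2 CPM in AllPrep, a near-complete overlap (log2 fold change -0.02, interval -0.23 to 0.19). Per kb, H2az1 stood at 52.1 CPM and H2az2 at 14.7 CPM. The 150-base windows of H2az1 were shared with another annotated gene, Gm8203, in 25.9% of cases, and those of H2az2 in 0.0%, so the H2az1 counts are less certain.

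The linker histone variant H1f0 accumulates in differentiated cells, and H1f10 is a further replication-independent H1. H1f0 (ENSMUSG00000096210) had 99.2, 98.3 and 103 CPM in TRIzol and 94.4, 88.6 and 87.0 CPM in AllPrep, without overlap (log2 fold change -0.12, SE 0.06, adjusted p = 0.28, interval -0.27 to 0.03). H1f10 (ENSMUSG00000044927) had 5.88, 4.07 and 5.001 CPM in TRIzol and 4.14, 4.49 and 5.26 CPM in AllPrep, with the groups mixed (log2 fold change -0.07, interval -0.48 to 0.36). Per kb, H1f0 stood at 46.3 CPM and H1f10 at 3.95 CPM.

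The remaining variants belong to H2A. H2ax, whose protein is phosphorylated at DNA breaks, had 14.6, 11.03 and 12.98 CPM in TRIzol and 12.7, 14.6 and 13.1 CPM in AllPrep. It was the member of its class with a positive log2 fold change (0.10, adjusted p = 0.67), and its groups overlapped. H2aj, which encodes the H2A.J variant, had 10.3, 11.2 and 11.5 CPM in TRIzol and 10.2, 7.31 and 9.40 CPM in AllPrep. The groups were separated by the narrow gap between 10.2 and 10.3 CPM (log2 fold change -0.26, SE 0.14, adjusted p = 0.28). Without AllPrep replicate 2, the lowest library, it was -0.14.

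On the scale of CPM per kb of longest transcript, the order of the variants over the 6 libraries was H3f3b, H2az1, H1f0, H3f3a, H2az2, H2ax, H2aj and H1f10. In TRIzol the neighbours H2az1 and H1f0 had 54.8 ± 2.24 and 48.7 ± 1.18 CPM per kb (SD, n = 3), and in AllPrep 49.3 ± 4.497 and 43.8 ± 1.89, so in AllPrep their ranges of mean ± SD touched. The longest transcript need not be the one present, which makes this order approximate.

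**Figure D2:**
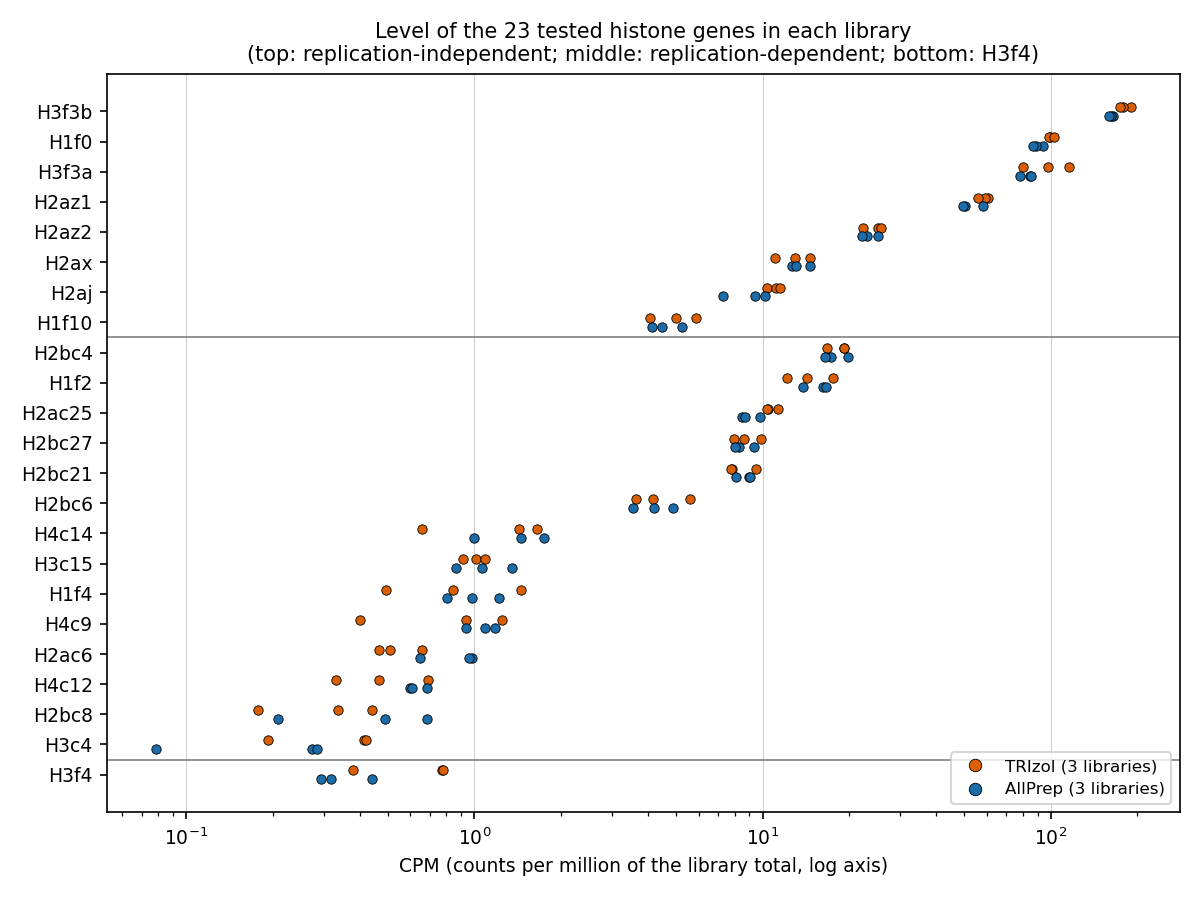
CPM of the 23 tested histone genes on a log axis, 1 point per library, with TRIzol (orange) above AllPrep (blue) in each row. The points of H3f3b, H1f0, H2aj and H2ac25 separate by method, with AllPrep lower, and the other rows overlap.

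Among replication-dependent genes, 6 members carried 88.8% of the 18343 counts of the class over all libraries: the H2B genes H2bc4, H2bc27, H2bc21 and H2bc6, the linker histone H1f2 and the H2A gene H2ac25. Their levels were those of low to moderate mRNAs. H2bc4 (ENSMUSG00000018102) had 19.2, 19.2 and 16.8 CPM in TRIzol and 17.3, 19.9 and 16.5 CPM in AllPrep. The groups overlapped fully, with a log2 fold change of -0.01 (interval -0.26 to 0.25). H1f2 (ENSMUSG00000036181) had 14.3, 17.5 and 12.1 CPM in TRIzol and 16.2, 16.6 and 13.9 CPM in AllPrep, also overlapping (0.12, interval -0.21 to 0.48). H2bc27 had 8.63, 9.91 and 7.96 CPM in TRIzol and 8.25, 8.04 and 9.31 CPM in AllPrep. H2bc21 had 7.83, 7.79 and 9.47 CPM in TRIzol and 8.96, 9.05 and 8.07 CPM in AllPrep. The log2 fold changes of these H2B genes were -0.01 and 0.09, and neither passed (adjusted p = 0.96 and 0.68 in edgeR). H2bc6 ranged from 3.64 to 5.61 CPM in TRIzol and from 3.55 to 4.90 CPM in AllPrep (log2 fold change -0.05).

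H2ac25 (ENSMUSG00000078851) was the replication-dependent gene whose groups did not overlap. It had 10.4, 10.4 and 11.3 CPM in TRIzol and 8.504, 8.69 and 9.80 CPM in AllPrep (log2 fold change -0.21, SE 0.11, adjusted p = 0.26, interval -0.47 to 0.04). For this gene 28.0% of the 150-base windows also belong to an annotated transcript of Trim17, so part of its counts may not be its own. Over all 23 tested members, 4 had non-overlapping groups with AllPrep lower (H3f3b, H1f0, H2aj and H2ac25), where the same held for 20.6% of all genes tested. With AllPrep higher the number was 0, against 13.4% of all genes. On TMM-scaled CPM the same 4 genes were lower (17.1% of all genes) and 1, H2ac6, was higher (16.02% of all genes). These shares are near the background or below it.

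The other 8 tested replication-dependent genes each had fewer than 80 counts per library, and their intervals were wide. H2ac6 had 24, 18 and 23 counts in TRIzol and 43, 37 and 33 in AllPrep, or 0.659, 0.467 and 0.511 against 0.978, 0.960 and 0.648 CPM. AllPrep replicate 3 fell just below TRIzol replicate 1, and the difference did not pass (log2 fold change 0.69, SE 0.30, adjusted p = 0.20, interval -0.03 to 1.30). H4c14 had 24, 55 and 74 counts in TRIzol and 44, 67 and 74 in AllPrep, a spread within TRIzol wider than the difference (0.20, interval -0.62 to 1.14). H3c15 had 37, 42 and 41 counts in TRIzol and 38, 41 and 69 in AllPrep; 59.4% of its windows are shared with other genes, including other H3 copies. H4c9, H4c12 and H2bc8 had log2 fold changes of 0.36, 0.37 and 0.59, H1f4 had 0.13, and H3c4 had -0.70 (4 to 12 counts in AllPrep, 7 to 19 in TRIzol). With 1 library left out, H4c9 ranged from 0.010 to 0.73, H4c12 from 0.15 to 0.69, H2bc8 from 0.23 to 0.91 and H3c4 from -0.97 to -0.28. The positive median of the class came from these genes: in the 6 members with at least 100 counts in every library the median was -0.01.

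**Figure D3:**
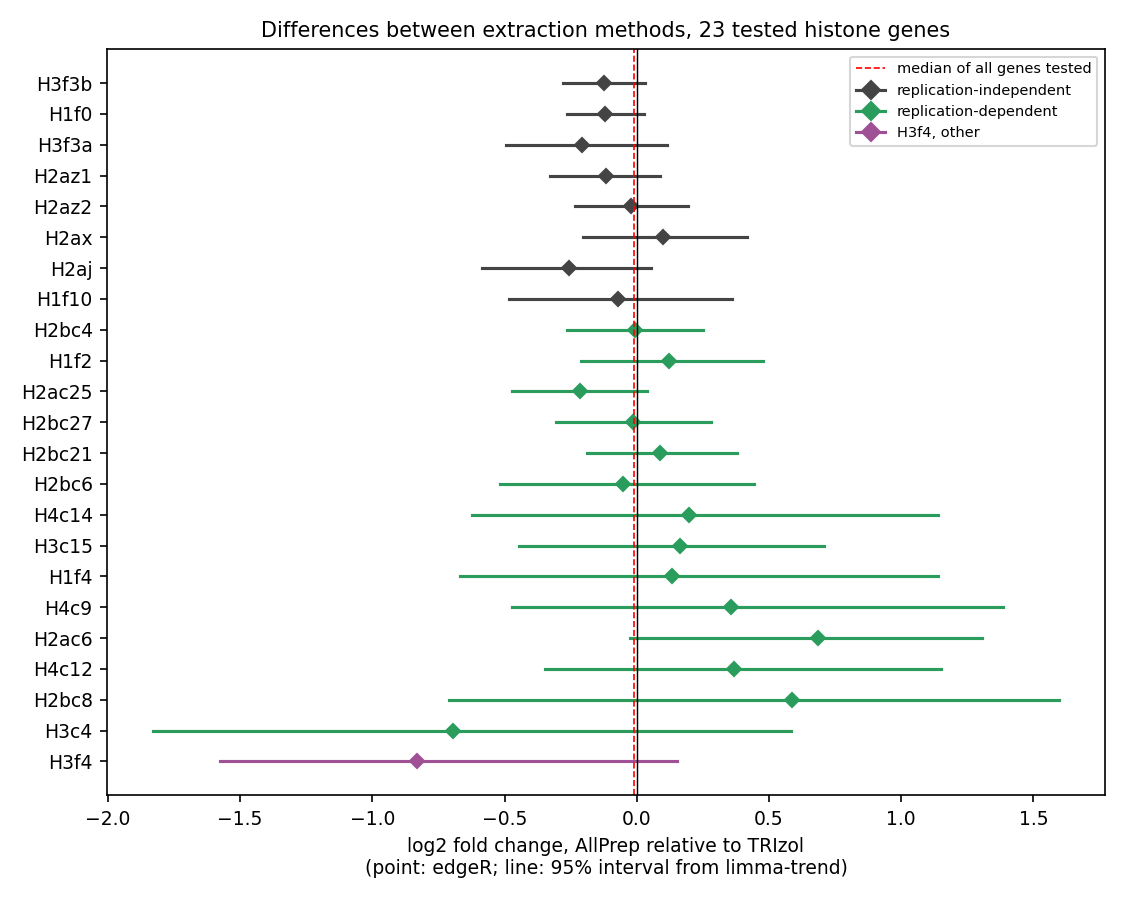
Log2 fold change, AllPrep relative to TRIzol, of the 23 tested histone genes, with points from edgeR and lines for the 95% interval from limma-trend; the dashed line marks the median of all genes tested (-0.01). Every interval includes 0, and the intervals widen from H3f3b (-0.28 to 0.03) to the low-count H3c4 (-1.83 to 0.58).

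The 39 members below the count filter had at most 13 counts in any library. Of these 33 were replication-dependent, and 6 belonged to the rest class, where H2al1m, H2ab3, H1f9, H1f8, H2al1o and H2af-ps1 had at most 7 counts over all 6 libraries together. In all, 32 of the 62 members had no count in at least 1 library, where a count of 0 allows up to 3 counts, or 0.0589 to 0.0824 CPM depending on the library. The best counted of the untested genes were H2bc15 with 8, 8 and 6 counts in TRIzol and 9, 5 and 4 in AllPrep, H4c11 with 9, 6 and 6 and then 5, 5 and 6, and H4c3 with 4, 0 and 4 and then 7, 10 and 13. Many genes of the S-phase core, such as H3c2, H3c3, H3c10, H3c11, H4c1 and H2ac11, had between 1 and 4 counts in all libraries together. Of their 150-base windows 15.6% (H3c3) to 90.5% (H3c10) also occur in other genes, so these counts may leave out reads that fit several genes. Of the histone counts between 1 and 20, 98 of 149 (65.8%) were even, beside 64.2% to 70.9% per library over all genes. An excess of even counts would follow if each fragment added its reads singly, so a count of 2 may be 1 fragment.

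Taken as a sum, the 33 untested replication-dependent genes had 46, 63 and 83 counts in TRIzol and 96, 75 and 98 in AllPrep. Scaled to the library total these were 1.26, 1.64 and 1.84 CPM in TRIzol and 2.18, 1.95 and 1.92 CPM in AllPrep, so each AllPrep library was above each TRIzol library. The gap between 1.84 and 1.92 CPM is smaller than the counting error: the exact 95% Poisson interval is 66.1 to 103 for 83 counts and 79.6 to 119 for 98 counts. These intervals cover counting error alone and are too narrow where 1 fragment gave 2 counts.

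Among the 33 genes with a match, how far the annotated transcript runs past the stem-loop went along with the counts. In 13 of the 33 genes with a match the transcript ended 3 to 74 bases after it, and in 20 it ran on for 151 to 4884 bases. The limit of 100 bases between these was set after the data had been seen. Of the 13 genes with a near end none was tested, and their counts over all libraries ran from 1 to 33 (median 6). Of the 20 genes with a far end 11 were tested, with totals from 3 to 3797 counts (median 84.5). Divided by the length of the longest annotated transcript, the median level was 0.0469 CPM per kb for the near ends and 0.253 CPM per kb for the far ends. The groups overlapped, since the far-ended H1f3 and H4c16 had 21 and 3 counts in all. The 14 replication-dependent genes without a match, 3 of them tested, had a median of 0.0579 CPM per kb, near that of the near ends. Their median annotated length was 497.5 bases, beside 508 for the near ends and 1255 for the far ends. An AATAAA within the last 40 bases of a transcript, the usual poly(A) signal, was present in 1 of the 13 and in 8 of the 20. It was present in 3 of the 14 genes without a match. Annotated ends derive partly from sequenced mRNA. The share of 150-base windows found in other genes differed as well (median 26.7% for near and 6.6% for far ends, and 24.55% without a match). The part of length and of such sharing in the counts was not tested.

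**Figure D4:**
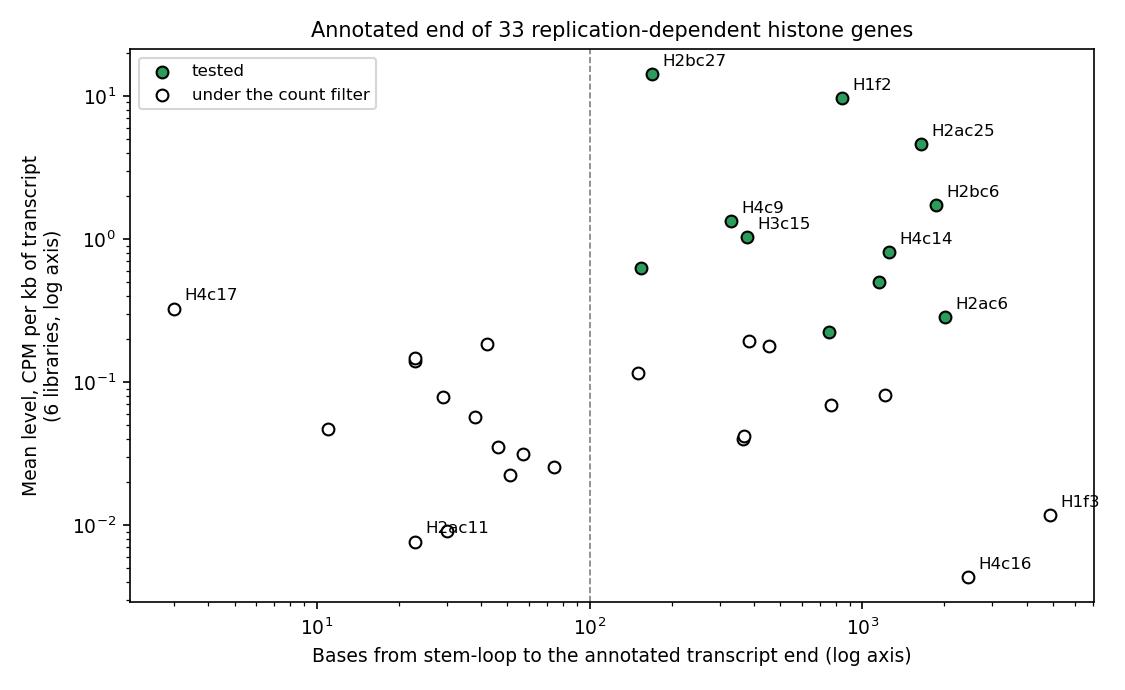
Bases from the stem-loop to the annotated transcript end against the mean level in CPM per kb over 6 libraries, both on log axes, for the 33 replication-dependent genes with a match; filled points were tested, and the dashed line marks 100 bases. No gene left of the line was tested, and 11 of the 20 to its right were.

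The 13 near-ended genes were counted by method as well. They summed to 7, 17 and 26 counts in TRIzol replicates 1 to 3 and 38, 19 and 35 in AllPrep replicates 1 to 3. The groups overlapped, since AllPrep replicate 2 (0.493 CPM) lay below TRIzol replicate 3 (0.578 CPM). The highest of the 13 was H4c17, with 3, 4 and 2 counts in TRIzol and 13, 7 and 4 in AllPrep, and 85.8% of its windows are shared with another H4 gene.

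No stem-loop letters were found in 14 replication-dependent genes, which include H2bc4 and H2bc21 among the 6 best counted. The annotated transcript of H2bc21 is 2620 bases long and has AATAAA near its end. That of H2bc4 is 1156 bases long and has no AATAAA in its last 40 bases. H4c12, the third tested gene without a match, is annotated over 312 bases. Other short annotations without a match were those of H2bc15 (381 bases), H2ac10 (399), H3c10 and H3c11 (411 each). Whether these annotations reach the end of the mRNA was not tested. H2bc26, with 26 counts in all, is annotated as a processed pseudogene and was placed in this class by its symbol.

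Many H2A and H2B genes lie head to head and share the DNA between their starts. With starts at most 1000 bases apart, 6 such pairs had both genes in the table, and the partners were not counted alike. H2bc4 stood at 15.7 CPM per kb and its partner H2ac6 at 0.284, a ratio of 55.3. Their counts over all libraries were 4556 and 178, and their longest transcripts 1156 and 2482 bases. The ratio per kb thus depends on the annotated length, and the longest transcript need not be the one present. H2bc21 stood at 3.25 and its partner H2ac20, with 4 counts in all, at 0.0314. In the pair of H2ac25 and the pseudogene H2bc26 the H2A gene was the higher, with 4.59 against 0.226 CPM per kb. The other pairs were H2ac7 with H2bc7, H2ac8 with H2bc8, and H2ac11 with H2bc11, each gene with at most 100 counts in all.

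By the older cluster names, 38 replication-dependent genes belong to the Hist1 cluster. Together they gave 43.3, 46.6 and 37.2 CPM in TRIzol and 44.4, 47.4 and 39.6 CPM in AllPrep. The 5 genes of Hist2 gave 9.53 to 12.1 and 10.8 to 11.9 CPM. By histone type, the 15 H2B genes had 38.6 to 42.2 CPM in TRIzol and 38.5 to 42.6 CPM in AllPrep, while the 9 H3 genes had 1.26 to 1.71 and 1.39 to 1.69 CPM and the 9 H4 genes 2.42 to 3.50 and 3.43 to 3.94 CPM. Each of these sums overlapped between the methods, that of H4 only at its edge. Without overlap were the 3 genes of Hist3, at 19.123 to 20.5 CPM in TRIzol and 16.8 to 19.121 CPM in AllPrep, and the 9 H2A genes, at 11.03 to 12.2 and 9.71 to 10.7 CPM. On TMM-scaled CPM both overlapped (19.03 to 20.1 and 16.8 to 19.5 for Hist3, 10.8 to 12.1 and 9.66 to 10.9 for H2A). Both sums hold H2ac25, which gave 2496 of the 4723 counts of Hist3 and of the 2739 of H2A.

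H3f4 was the 1 tested gene of the rest class. GENCODE vM21 lists it as the unprocessed pseudogene Gm12260. It had 28, 30 and 17 counts in TRIzol and 14, 17 and 15 in AllPrep, or 0.769, 0.779 and 0.378 against 0.318, 0.441 and 0.294 CPM. TRIzol replicate 3 lay within the AllPrep range, and the difference did not pass (log2 fold change -0.83, SE 0.40, adjusted p = 0.23, interval -1.58 to 0.15).

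Genes that process histone mRNA were also examined, from a list that covers Slbp, the U7 particle and the cleavage machinery. All 28 listed genes of the table were tested: 1 rose and 0 fell, where 2.52% and 1.28% of all genes did, and the median log2 fold change was -0.04. A single call in 28 genes is near that background. Tut4, a terminal uridylyltransferase, went from 34.7 ± 0.981 to 42.3 ± 1.81 CPM (SD, n = 3; log2 fold change of 0.32 with an SE of 0.07 and an edgeR adjusted p of 0.0495). Its call was lost when any 1 library was left out (adjusted p from 0.081 to 0.14), with the replicate number as a block (0.098), with library size alone (0.063), with no filter (0.063) and with length and GC trends removed (0.13). Its log2 fold change was 0.29 to 0.35 with 1 library left out, 0.32 with the block, 0.29 with library size alone and 0.21 with length and GC trends removed. Slbp had 25.4, 28.2 and 26.98 CPM in TRIzol and 23.6, 21.01 and 19.7 CPM in AllPrep. It was lower in all AllPrep libraries, as were 20.6% of all genes tested, but not past the threshold (log2 fold change -0.29, SE 0.09, adjusted p = 0.10). Within the list 17 genes had negative and 11 had positive log2 fold changes. The most abundant members, the cleavage factor gene Cstf2 and Srrt, stood at -0.11 each on the log2 scale (adjusted p = 0.36 and 0.35).

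Histone chaperones carry histones to DNA or exchange them there. All 36 listed genes of the table were tested: 1 rose and 1 fell, where 2.52% and 1.28% of all genes did, with a median log2 fold change of -0.07. That median was -0.0071 without AllPrep replicate 3 and -0.020 without TRIzol replicate 1. Nasp, a chaperone of H3 and H4, fell from 27.8, 21.1 and 25.2 CPM in TRIzol to 15.8, 16.3 and 15.7 CPM in AllPrep (log2 fold change -0.60, SE 0.12, adjusted p = 0.040). Ep400, an ATPase of a complex that deposits H2A.Z, rose from 94.0 ± 3.63 to 129 ± 10.1 CPM (0.49, SE 0.08, adjusted p = 0.032). Neither call held when any 1 library was left out (adjusted p from 0.058 to 0.12 for Nasp and from 0.057 to 0.089 for Ep400), with the replicate number as a block (0.075 and 0.054) or with length and GC trends removed (0.051 and 0.31). The log2 fold changes stayed at -0.70 to -0.50 for Nasp and 0.42 to 0.54 for Ep400 with 1 library left out and at -0.59 and 0.49 with the block, and were -0.54 and 0.13 with length and GC trends removed. The abundant nucleosome assembly genes Nap1l5 and Nap1l1 stood at -0.26 and 0.07 (adjusted p = 0.34 and 0.63).

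Markers of S phase and dividing cells were the last list. Of 32 listed genes 29 were tested and 0 passed in edgeR, DESeq2 or limma-trend, where 3.80% of all genes were called in edgeR. At an unadjusted p below 0.05 edgeR gave 3, with no share over all genes at hand for that cut. These were E2f1, Ccna2 and Pcna, with log2 fold changes of -0.42, -0.81 and -0.29 (edgeR adjusted p = 0.10, 0.14 and 0.16). Each was lower in all AllPrep libraries, as were 20.6% of all genes tested. The median of the list was -0.15 and 20 of 29 were negative, against 51.5% of all genes. Leaving out TRIzol replicate 1 turned that median to 0.0072, and leaving out TRIzol replicate 3 gave -0.23. The list summed to 178 to 201 CPM in TRIzol and 170 to 171 CPM in AllPrep, lower in each AllPrep library. On TMM-scaled CPM the gap was narrow, between 174.4 in AllPrep and 174.9 in TRIzol. The replication-independent histone sums were also lower in each AllPrep library, while the replication-dependent sums overlapped. The part of the S-phase list in either was not tested. Mki67, which marks cycling cells, had 3.68, 0.675 and 1.67 CPM in TRIzol and 2.14, 1.87 and 2.89 CPM in AllPrep. Top2a, the topoisomerase of dividing cells, had 3.19, 0.675 and 0.978 CPM and then 0.591, 1.12 and 1.65 CPM. Both overlapped, and TRIzol replicate 1 was the highest library for each. The most abundant list members, Pcna and Rrm1, had log2 fold changes of -0.29 and -0.06 (edgeR adjusted p = 0.16 and 0.69).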

How the data were processed

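The table deposited by the authors holds raw counts of reads per gene for 6 libraries, made by T7 in vitro transcription amplification and read as pairs of 150 bases, per the labels' protocols. Per the submitters' processing notes, FastQC 0.11.9, cutadapt, STAR 2.7.9a, featureCounts, limma 3.60.6 and build GRCm39 were used. Strand and multi-mapping settings were not given in the sources used here. After removal of the 108 repeated rows of 22692, none of a histone gene, 22584 genes were left. Genes were tested over the whole table with edgeR 4.0.16 in R 4.3.3 (filterByExpr, TMM, quasi-likelihood F-test, two-sided, Benjamini-Hochberg over 16325 genes), checked on simulated data. The SE is the size of the log2 fold change divided by the square root of F. Intervals came from limma 3.58.1 (limma-trend, log2 CPM, prior count 2). CPM are per library total. DESeq2 1.42.0 and mgcv 1.9.3 served alternatives. Within each method the libraries differed by more than sampling noise (smallest chi-square per degree of freedom 14.3).

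Transcripts, lengths and stem-loops came from GENCODE vM21, which is on another build, so no coordinates are given; all 62 members matched by Ensembl ID. Members, classes and lists were chosen with earlier results of these data known, so lists get no test of their own. The rule named, in each class, the 8 members of highest CPM and the 4 with the largest change in each direction, the 3 best counted untested members, and of each further list the genes past the threshold and the 2 most abundant. Slbp, H3f4, H1f4, E2f1, Ccna2, Mki67, Top2a and the untested genes named by stem-loop, pair or low count were named outside that rule, with their values seen.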

Additional observations from a re-analysis of the deposited data

How the results depend on the processing

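No histone gene passed in any of the 14 alternatives run, which include each library left out in turn, no filter (62 genes tested) and a filter of 1 CPM in 3 libraries (17 tested); the smallest adjusted p was 0.12. Over all genes, 621 calls became 2101 with DESeq2, 236 with the replicate block, 399 with length and GC trends removed and 2 to 205 with 1 library left out. Higher calls were 66.3% of them, but 52.6% with library size alone and 37.3% with length and GC trends removed. In the processing and chaperone lists, 1 and 2 calls became 2 and 6 with DESeq2 and 0 and 0 with the replicate block, with length and GC trends removed or with any 1 library left out; with library size alone or no filter they were 0 and 2. Deviations from the group mean correlated at -0.05, 0.01 and 0.16 between same-numbered libraries, and not every library correlated best with its own number. With 3 libraries per group this cannot show whether same-numbered libraries share an animal. The replicate block gave class medians of 0.14 and -0.12 for replication-dependent and replication-independent genes. Leaving out 1 library gave medians of 0.036 to 0.24 and of -0.14 to -0.073, and the second was -0.064 with length and GC trends removed. Chosen after seeing the data, members with at least 100 counts gave -0.0095, and the summed CPM of near-ended genes gave a log2 ratio of 0.75. Of 311 gene values under alternatives 288 kept their sign and 23 reversed. The interval of every tested member includes 0, so this does not set the reversed genes apart. Reversed values were 0.036 for H2az2, 0.085 for H2bc4 and 0.071 for H2bc27 with length and GC trends removed, and 0.0016 for H2bc4 with DESeq2. With 1 library left out, ranges were -0.083 to 0.013 for H2az2, -0.10 to 0.047 for H2bc4, -0.085 to 0.071 for H2bc27, -0.0064 to 0.21 for H2ax, -0.20 to 0.070 for H1f10, -0.18 to 0.15 for H2bc6, -0.10 to 0.46 for H4c14, -0.030 to 0.32 for H3c15 and -0.16 to 0.59 for H1f4. The cause was not tested. Genes under 80 counts had the widest intervals, and what sets their width was not tested.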
